A study of Mus musculus with 4 samples.

Results

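Interferon-stimulated genes were followed as a list of 42 genes across 4 single-cell libraries of C3H10T1/2, a mouse line of mesenchymal progenitor cells (MPC). The list was named gene by gene, with 5-Azacytidine (5-Aza) results of these cells already known, so the levels below are a description and carry no test. The count tables held 40 of the 42 genes among 32285 genes, and Mx1 and Mx2 were not analysed here. Of the 40, 36 had a mean level of at least 1 CPM (a gene's summed counts scaled to a common library total) over the 4 libraries. The remaining members were Oas3, Rsad2, Cmpk2 and Trim25.

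The study asked how a cancer-associated histone mutation alters differentiation. All cells carried a lentiviral, epitope-tagged human histone H3.1 transgene under puromycin selection, either the wild-type form (H3WT) or the form with cysteine in place of arginine 26 (H3R26C). Each line received either 5-Aza, an inhibitor of DNA methyltransferases that lets these progenitors differentiate over weeks into muscle and fat cells, or the vehicle DMSO. The paper describes 5-Aza as a brief treatment, with weeks of culture after it before the cells were collected. This gave 1 library each for H3WT with DMSO, H3WT with 5-Aza, H3R26C with DMSO and H3R26C with 5-Aza. The collection day of the DMSO cells is not given in the sources used here, so treatment and time in culture cannot be told apart. The transgene is a human sequence and was not checked in the mouse gene counts. With 1 library per condition there was no replicate check, and all intervals cover counting error only.

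Type I interferons bind the receptor chains Ifnar1 and Ifnar2 at the cell surface. The kinases Jak1 and Tyk2 then act on transcription factors such as Stat2, which joins Irf9 in a complex that binds the interferon-stimulated response element in front of its target genes. Those targets include enzymes that sense or degrade viral RNA, membrane proteins that block entry or release of viruses, and the ubiquitin-like protein Isg15.

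The response element is visible in the promoters of the members. Its core was searched as GAAA, any 2 bases and GAAA again, on both strands in the RefSeq promoter windows of the mouse genome (GRCm38.p6), which run from 250 bases before to 50 bases after a gene's start. Of the 40 members, 31 had a window. The core was found in 16 of these 31 genes (51.6%) and in 3.99% of all 27025 genes with a window. A gamma-activated site, TTCNNNGAA, was found in 8 of the 31 (25.8%) and in 9.55% of all genes. The stretches below belong to the 6 members with the largest 5-Aza ratio in H3R26C among those with a core match before the gene's start. That ranking used levels with 1 CPM added. Oas3 and Rsad2 also held the core and are not shown, although they were 44.8-fold and 27.3-fold a floor of 3 counts in H3R26C DMSO. Irgm1, chosen after its values were seen, is added because it held the core and its summed level per library was nearly flat. Each stretch is read 5′ to 3′ on the strand of its gene, and capitals mark the core or its reverse complement.
Isg15, chr4:156200850-156200921, minus strand: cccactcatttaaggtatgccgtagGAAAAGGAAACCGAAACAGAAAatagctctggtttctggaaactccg
Ifit1, chr19:34640760-34640838, plus strand: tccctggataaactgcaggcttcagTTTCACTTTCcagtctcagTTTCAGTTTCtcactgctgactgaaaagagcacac
Oas1a, chr5:120907526-120907570, minus strand: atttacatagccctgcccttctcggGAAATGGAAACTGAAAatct
Ifit3, chr19:34583348-34583441, plus strand: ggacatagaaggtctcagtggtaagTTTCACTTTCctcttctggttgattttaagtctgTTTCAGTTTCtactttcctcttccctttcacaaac
Trim30a, chr7:104465195-104465254, minus strand: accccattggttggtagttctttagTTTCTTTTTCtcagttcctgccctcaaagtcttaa
Bst2, chr8:71537562-71537627, minus strand: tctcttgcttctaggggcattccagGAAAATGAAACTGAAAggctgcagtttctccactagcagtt
Irgm1, chr11:48871421-48871475, minus strand: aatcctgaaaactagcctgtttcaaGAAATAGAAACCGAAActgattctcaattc
Isg15 held 3 overlapping matches, and Irgm1 held 2, as did Ifit1, Oas1a, Ifit3 and Bst2. The 16 members with the core had a median log2 ratio of 5-Aza to DMSO of 1.35 in H3R26C, with values from 0.05 to 3.93. The 15 members with a window but no match had a median of 1.17, with values from 0.09 to 3.19. A match is a description of the letters in these windows.

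Cells were the 22049 of 39891 barcodes with at least 5000 UMIs (distinct RNA molecules), at least 1500 genes and at most 20% mitochondrial UMIs. They numbered 3710 to 7619 per library, with 84060490 to 110712425 UMIs per library and a median of 13123 to 22420 UMIs per cell. Pairs of libraries shared 24 to 58 of the kept barcodes, none with equal counts of the listed genes. All 6 mesenchymal progenitor markers were at 1 CPM or more in every library, with a summed level of 5236 to 6215 CPM. Of 12 skeletal muscle markers, 1 or 2 reached 1 CPM with DMSO and all 12 with 5-Aza, where their summed level was 2013 CPM in H3WT and 2538 CPM in H3R26C. The 8 blood and macrophage markers summed to 7.36 CPM in H3WT DMSO, 11.97 in H3WT 5-Aza, 5.08 in H3R26C DMSO and 14.2 in H3R26C 5-Aza. In the same order, Cd68 was at 4.98, 9.91, 1.89 and 10.7 CPM, and Ptprc had 0, 20, 0 and 140 UMIs. Lyz2 was lower with 5-Aza in both lines, and Siglech and Tyrobp were at 0 in all 4 libraries. The 5 endothelial markers summed to 0.311, 3.06, 0.428 and 9.37 CPM. Both sums were thus low but higher with 5-Aza in each line, and the part of such cells in the members' level was not tested.

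The members were higher with 5-Aza in both lines, and by more in H3R26C. Summed over the 40 members, the level was 1181 CPM in H3WT DMSO and 2199 CPM in H3WT 5-Aza. In H3R26C it was 1727 CPM with DMSO and 5212 CPM with 5-Aza. Ratios are given on the scale log2 of (CPM + 1) over (CPM + 1), which understates the change of low genes. The median log2 ratio of 5-Aza to DMSO over the members was 0.67 in H3WT and 1.31 in H3R26C, against 0.04 and -0.04 over the 12482 genes whose mean level reached 1 CPM. A ratio of at least 2-fold was reached by 12 of 40 members in H3WT, where 4.38% of all genes reached it. In H3R26C it was reached by 25 of 40, where 7.27% of all genes did. The list was chosen with this contrast known, so nothing is read from these shares. No member was 2-fold lower in either line, against 0.272% and 3.12% of all genes. All 40 point ratios were above 0 in both lines, as were 56.6% of all genes in H3WT and 46.1% in H3R26C, although the counting intervals of some members included 0.

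The 12 members that reached 2-fold in H3WT also reached it in H3R26C. They were Irf7, Oasl2, Usp18, Bst2, Isg15, Ifit1, Ifi27l2a, Ifitm3, Xaf1, Rtp4, Iigp1 and Sp100. Another 13 reached it in H3R26C and not in H3WT, and 15 reached it in neither. The share of all genes in each of these groups was not computed, so nothing is read from this overlap. These groups hold for the scale with 1 CPM added. Without the added CPM, Oas2 was 12.8-fold in H3WT, Oas1a 5.52-fold, Ifi44 5.20-fold, Trim30a 2.27-fold and Herc6 2.02-fold. Their H3WT DMSO counts were 7, 14, 22, 113 and 227 UMIs. Cmpk2, among the 15, was 3.60-fold in H3WT and 39.5-fold in H3R26C, from 2 and 1 DMSO UMIs. Rsad2, also among them, was 27.3-fold in H3R26C against a floor of 3 counts in the DMSO library. Around the threshold in H3WT lay Bst2, just above it with a log2 ratio of 1.02, and Oas2, just below it at 0.91. In H3R26C, Gbp7 was just above it at 1.09 and Rsad2 just below it at 0.98. Oas3, Rsad2 and Trim25 had no UMI in H3R26C DMSO. When their ratios were taken against that floor of 3 counts in the DMSO library, the H3R26C median was 1.37 and 26 members reached 2-fold. The H3WT median was 0.70 over 39 members, since Oas3 was at or under that floor in both H3WT libraries.

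**Figure D1:**
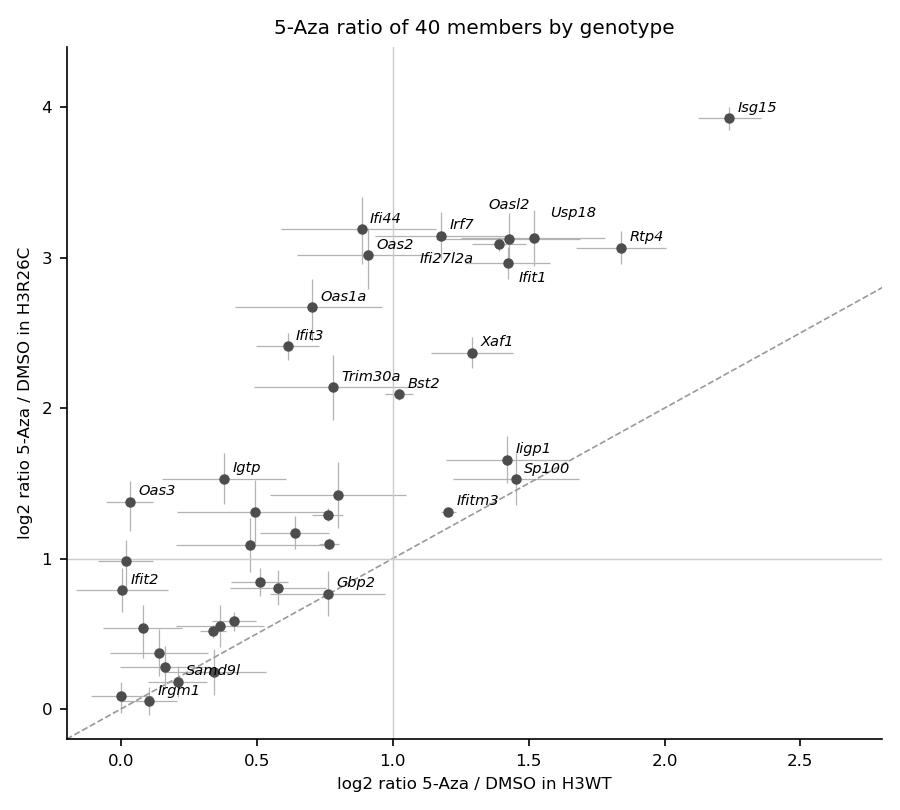
Log2 ratio of 5-Aza to DMSO in H3WT (x axis) and in H3R26C (y axis) for the 40 members, 1 point each; bars combine the 95% Poisson limits of both levels, the dashed line marks equal ratios and the grey lines a 2-fold ratio. Isg15 lies highest at 2.24 and 3.93, while Sp100, Ifitm3 and Gbp2 lie near the line of equal ratios.

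Among the transcription factors of the pathway, Irf7, which drives interferon genes and is itself induced, had the largest ratio. Its level was 2.46 CPM in H3WT DMSO, 6.84 in H3WT 5-Aza, 4.65 in H3R26C DMSO and 49.0 in H3R26C 5-Aza. The log2 ratio was 1.18 (95% counting interval 0.93 to 1.42) in H3WT and 3.15 (2.99 to 3.30) in H3R26C. These intervals cover counting error only, and the difference between the lines was not tested. Stat2 and Irf9, which work together in 1 complex, had smaller ratios. Stat2 was at 26.3, 37.8, 29.4 and 53.5 CPM in the same order of libraries, and Irf9 at 16.9, 26.9, 18.4 and 42.8 CPM. For both, the library of H3R26C with 5-Aza was the highest and the 2 DMSO libraries the lowest.

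The oligoadenylate synthetases, which make the signal that activates RNase L on double-stranded RNA, were low without 5-Aza, with at most 16 UMIs per library for Oas1a, Oas2 and Oas3. Oas2 had 7 UMIs in H3WT DMSO, 87 in H3WT 5-Aza, 16 in H3R26C DMSO and 954 in H3R26C 5-Aza. Oas3 had 0, 2, 0 and 177 UMIs, so that its H3R26C 5-Aza level was 44.8-fold a floor of 3 counts in H3R26C DMSO. Oasl2, a relative of these enzymes, went from 1.44 to 5.56 CPM in H3WT and from 3.51 to 38.4 CPM in H3R26C. On the scale with 1 CPM added, all 4 members of the family reached 2-fold in H3R26C and 1 of 4 in H3WT. Of all genes, 7.27% and 4.38% did. Without the added CPM, Oas2 was 12.8-fold and Oas1a 5.52-fold in H3WT, from 7 and 14 DMSO UMIs. Nothing is read from these counts of members.

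The Ifit proteins bind foreign RNA through tetratricopeptide repeats, and their 3 genes did not move alike. Ifit1 was at 8.24 CPM in H3WT DMSO, 23.8 in H3WT 5-Aza, 12.4 in H3R26C DMSO and 104 in H3R26C 5-Aza. Ifit3 was at 20.4, 31.8, 21.7 and 119.8 CPM, a value that is uncertain because the gene shares reads with the near-identical Ifit3b. Reads of Oas1a and of the Gbp genes can also be split with close relatives. Ifit2, which lies beside them on chromosome 19, was at 11.1 and 11.2 CPM in H3WT and at 10.8 and 19.5 CPM in H3R26C. In H3WT its log2 ratio was 0.00 with an interval of -0.16 to 0.17.

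Isg15, the ubiquitin-like modifier, had the largest log2 ratio of all members in both lines on the scale used here. Its level was 13.0 CPM in H3WT DMSO, 65.2 in H3WT 5-Aza, 23.0 in H3R26C DMSO and 363 in H3R26C 5-Aza. This is 5.00-fold in H3WT and 15.8-fold in H3R26C, with log2 intervals of 2.12 to 2.35 and 3.85 to 4.0. Usp18, the protease that removes Isg15 and also dampens receptor signalling, went from 1.35 to 5.73 CPM in H3WT and from 2.74 to 31.8 CPM in H3R26C. Ube2l6, the conjugating enzyme for Isg15, was at 8.25, 12.8, 18 and 32.2 CPM in the order H3WT DMSO, H3WT 5-Aza, H3R26C DMSO and H3R26C 5-Aza. For Ube2l6 the H3R26C DMSO library thus lay above the H3WT 5-Aza library. Trim25, a ubiquitin ligase, had 2, 2, 0 and 7 UMIs and cannot be ranked at this depth.

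The small membrane and mitochondrial proteins held most of the members' UMIs. Ifitm3, which blocks virus entry at endosomes, was the most abundant member in every library and held 26.3% to 37.1% of the members' UMIs. It was at 311 CPM in H3WT DMSO, 718 in H3WT 5-Aza, 640.0 in H3R26C DMSO and 1591 in H3R26C 5-Aza. The log2 ratios of 1.21 and 1.31 differed by 0.11 between the lines, although the 2 DMSO levels differed 2.06-fold. Ifi27l2a, a small protein of the Ifi27 family, was at 23.3, 62.7, 74.8 and 645 CPM, which is 2.69-fold in H3WT and 8.63-fold in H3R26C. Its neighbour on chromosome 12, Ifi27, was at 212 and 362 CPM in H3WT and at 212 and 454 CPM in H3R26C. Bst2, which tethers budding virus to the cell, was at 103, 210.5, 139 and 596 CPM. Rtp4, a chaperone of membrane receptors, went from 6.29 to 25.1 CPM in H3WT and from 11.6 to 105 CPM in H3R26C. Shisa5 was the member of this group with the smallest ratio, at 144, 183, 159.8 and 229 CPM.

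**Figure D2:**
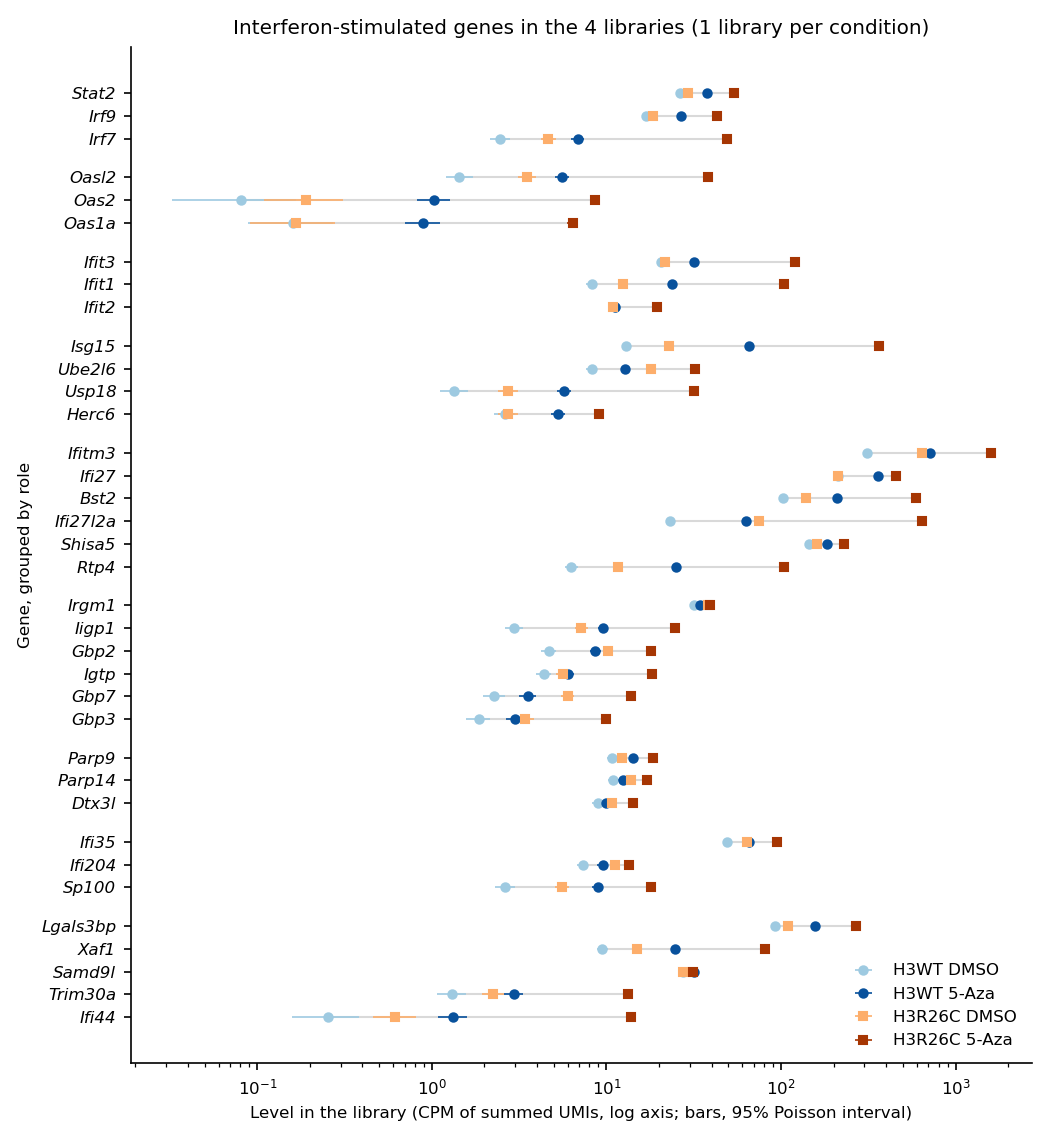
Level of the 36 members with a mean of at least 1 CPM in each library (x axis, CPM, log axis), grouped by role along the y axis; points are libraries and bars 95% Poisson intervals. The H3R26C 5-Aza library is the highest for all of these members except Samd9l, where H3WT 5-Aza is at 32.0 CPM and H3R26C 5-Aza at 31.5 CPM.

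The interferon-induced GTPases, which act on the membranes of intracellular microbes, included both large ratios and the member with the flattest library level in H3R26C. Iigp1 was at 2.96 CPM in H3WT DMSO, 9.59 in H3WT 5-Aza, 7.20 in H3R26C DMSO and 24.9 in H3R26C 5-Aza. Irgm1 was at 31.7, 34.2, 38.0 and 39.4 CPM, with a log2 ratio of 0.10 in H3WT and 0.05 in H3R26C. The interval in H3R26C, -0.04 to 0.14, includes 0. Gbp2, Gbp3, Gbp7 and Igtp had log2 ratios of 0.38 to 0.76 in H3WT and of 0.77 to 1.53 in H3R26C.

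The members with roles in ADP-ribosylation and in the nucleus changed little, apart from Sp100. Parp9 was at 10.8, 14.2, 12.4 and 18.6 CPM and Parp14 at 10.9, 12.4, 13.8 and 17.1 CPM, in the order H3WT DMSO, H3WT 5-Aza, H3R26C DMSO and H3R26C 5-Aza. None of the 3 genes of the ADP-ribosyltransferase group reached 2-fold in either line, where 4.38% of all genes did in H3WT and 7.27% in H3R26C. Sp100, a component of nuclear bodies, went from 2.63 to 8.93 CPM in H3WT and from 5.56 to 17.9 CPM in H3R26C, with log2 ratios of 1.45 and 1.53. Ifi35 was at 48.8, 65.5, 63.5 and 95.5 CPM. Ifi204, a DNA-binding protein, was at 7.30, 9.53, 11.2 and 13.5 CPM, and its log2 ratio was lower in H3R26C (0.25) than in H3WT (0.34), with overlapping intervals.

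Rsad2 (viperin) and its neighbour Cmpk2, which act on nucleotides, were close to undetected outside H3R26C 5-Aza. Rsad2 had 1, 2, 0 and 108 UMIs and Cmpk2 had 2, 7, 1 and 52 UMIs in the same order of libraries. In H3R26C 5-Aza, before thinning, Rsad2 was found in 0.643% of cells and Cmpk2 in 0.538%. Of the remaining members, Ifi44 went from 0.253 to 1.32 CPM in H3WT and from 0.619 to 13.7 CPM in H3R26C. On the scale with 1 CPM added, it had the largest genotype difference of all members, a log2 ratio 2.30 higher in H3R26C. Without the added CPM, Ifi44 was 5.20-fold in H3WT and 22.2-fold in H3R26C, and Oas1a was 5.52-fold and 38.6-fold. Xaf1 was at 9.50, 24.7, 14.9 and 81.3 CPM, and Lgals3bp, a secreted glycoprotein, at 92.0, 157, 109.8 and 270.4 CPM. Samd9l was nearly flat in its library level, at 27.5, 32.0, 27.6 and 31.5 CPM.

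The members were also compared between the lines at each treatment. These comparisons share their libraries with those above. With DMSO, 34 of 40 members were above 0 in H3R26C against H3WT, where 56.3% of all genes were, with a median log2 ratio of 0.34 against 0.03 over all genes. Of the 40, 5 reached 2-fold, where 1.82% of all genes did, and none was 2-fold lower, against 0.577%. The largest was Ifi27l2a, 3.21-fold higher in H3R26C DMSO than in H3WT DMSO. After 5-Aza, the median was 1.21, against -0.03 over all genes, and 21 of 40 reached 2-fold, where 4.21% of all genes did. After 5-Aza 39 of 40 were above 0, against 46.1% of all genes, and none was 2-fold lower, against 2.68%. The genotype difference of the 5-Aza log2 ratio had a median of 0.62 over the members and -0.09 over all genes. It was at least 1 for 16 of 40 members, against 2.44% of all genes, and none was at -1 or lower, against 1.82%. The difference was above 0 for 37 of 40, against 38.1% of all genes, and below 0 for Samd9l, Irgm1 and Ifi204, at -0.03, -0.05 and -0.10.

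Whether the change lay in few cells or in all was read from each cell after thinning it at random to 5000 UMIs, so that cells of different depth could be compared. The members' UMIs per cell had a median of 5 in H3WT DMSO, 10 in H3WT 5-Aza, 8 in H3R26C DMSO and 23 in H3R26C 5-Aza. The 5th percentile was 1, 3, 2 and 4, and the 95th was 12, 22, 16 and 57. Each of these percentiles lay higher with 5-Aza. The median of the DMSO cells was exceeded by 81.3% of H3WT 5-Aza cells (exact binomial interval 80.3 to 82.3%), where 45.3% of the DMSO cells exceeded it. In H3R26C these shares were 87.6% (86.8 to 88.3%) and 41.7%.

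The 95th percentile of the DMSO cells was exceeded by 32.0% of H3WT 5-Aza cells and by 67.6% of H3R26C 5-Aza cells. Both shares depend on the depth of thinning and were 19.8% and 60.3% at 2000 UMIs and 45.5% and 71.8% without thinning. At least 10 different members were found in 0.889% of cells in H3WT with DMSO and 5.99% with 5-Aza, and in 1.93% and 41.7% in H3R26C. Cells with no member UMI were rare in all libraries, at 1.11%, 0.901%, 0.275% and 0.354%. The 10% of cells with the most member UMIs held 23.5%, 23.3%, 22.1% and 24.1% of them, so the summed UMIs were not held by a small share of cells in any library. The sum is weighted toward abundant members, with 26.3% to 37.1% of it from Ifitm3. It does not describe the spread of single members or of the rise.

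**Figure D3:**
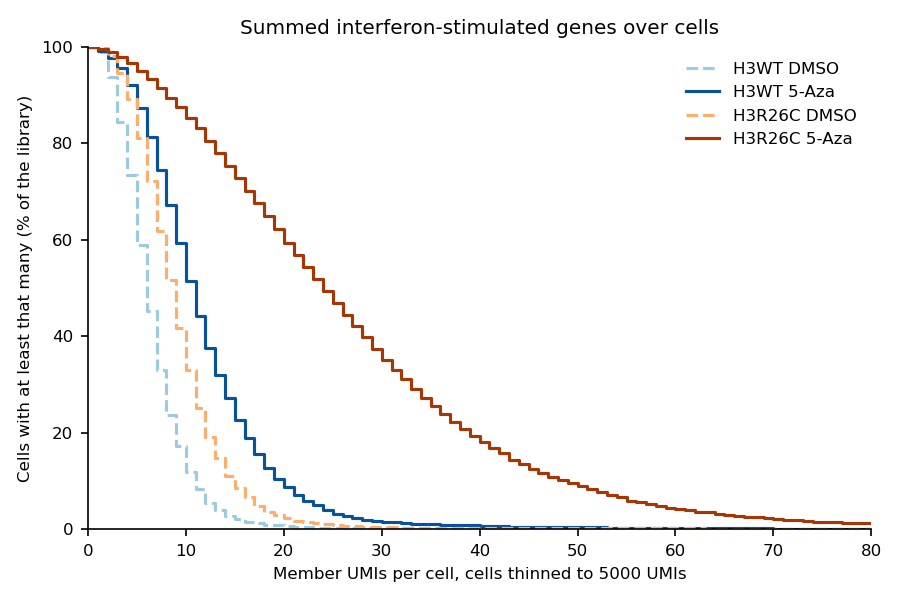
Share of cells (y axis, % of the library) with at least a given number of summed member UMIs (x axis) after thinning to 5000 UMIs, 1 line per library. The H3R26C 5-Aza line lies to the right of the others, with a median of 23 UMIs against 5, 10 and 8 in H3WT DMSO, H3WT 5-Aza and H3R26C DMSO.

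To order the cells and to measure them on different genes, the members were split alphabetically into odd and even ones, the cells were ordered by the odd members, and the level of the even members was taken. Ifitm3, the most abundant member, was an even one and held 26.3% to 37.1% of the UMIs of all members. The level of the even members is thus weighted toward this gene. In H3WT 5-Aza the mean ran from 2.82 UMIs per cell in the lowest 10% of cells to 8.61 in the highest 10%, or 1.30-fold to 3.96-fold the mean of all H3WT DMSO cells. In H3R26C 5-Aza it ran from 4.35 to 28.2, or 1.05-fold to 6.81-fold the mean of all H3R26C DMSO cells. In both libraries with 5-Aza the mean was higher in each successive group of cells.

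Against the lowest 10% of the DMSO cells, the lowest 10% with 5-Aza was 1.80-fold (counting interval 1.58 to 2.05) in H3WT and 1.30-fold (1.20 to 1.42) in H3R26C. Between the highest 10% of each the ratio was 2.44-fold in H3WT and 4.58-fold in H3R26C. The value for the lowest 10% of H3R26C against all DMSO cells, a log2 ratio of 0.07, is not stable. It was -0.23 without thinning, -0.09 when the cells were ordered by the even members, and 1.02 without the 3 most abundant members, Ifitm3, Ifi27 and Bst2.

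**Figure D4:**
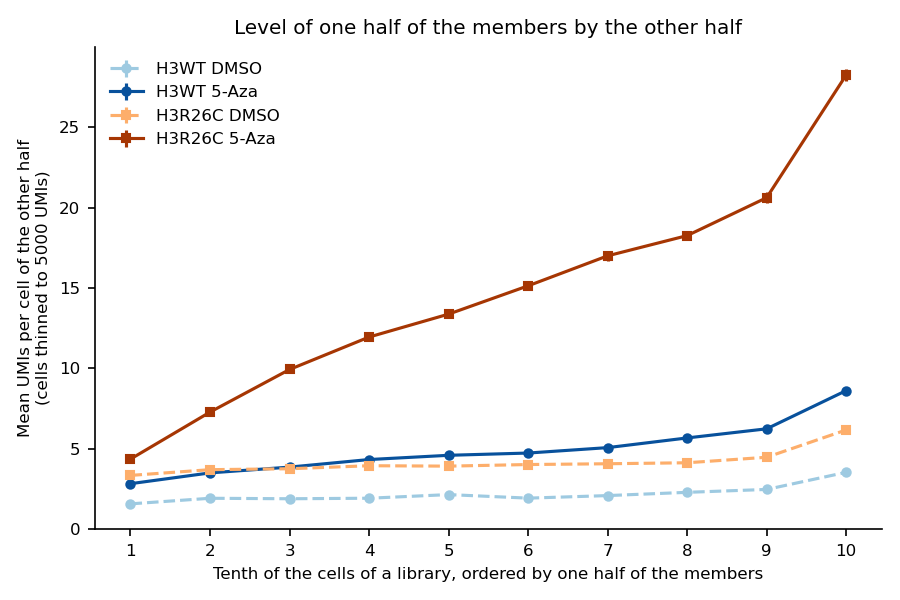
Mean UMIs per cell of the even members (y axis) in 10 equal groups of the cells of each library ordered by the odd members (x axis), after thinning to 5000 UMIs; bars are 95% Poisson intervals. H3R26C 5-Aza runs from 4.35 to 28.2 UMIs and H3WT 5-Aza from 2.82 to 8.61.

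The makeup of the groups of cells also varied in other genes. A cell was counted in a gate when it held at least 3 markers of a list after thinning, and gates can hold free RNA and mixed droplets. In the lowest 10% of H3R26C 5-Aza, 42.7% of cells were in the skeletal muscle gate, 26.6% in the mitosis gate and 28.1% in the DNA replication gate. In the highest 10% the shares were 18%, 7.88% and 5.91%. In H3R26C DMSO the mitosis gate also held more of the lowest 10% than of the highest, at 11.6% and 4.87%, and the DNA replication gate 12.5% and 7.20%. The members summed to 4361 CPM in the muscle gate, 4511 in the mitosis gate, 3797 in the DNA replication gate and 5915 in the cells outside all gates. Each of these values was above the 1727 CPM of all H3R26C DMSO cells. Without gated cells in either treatment, the log2 ratio of the lowest 10% to all DMSO cells was 0.72 in H3R26C and 0.67 in H3WT. In H3WT 5-Aza the muscle gate held 38.2% of the lowest 10% and 20.5% of the highest, and its cells had 1927 CPM against 2291 CPM outside the gates. No DMSO cell was in the muscle gate. The part of these cells in the result was not tested beyond leaving them out.

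Single members differed in how evenly they were spread. Cells ordered by the other 39 members were compared with the DMSO cells of the line, ordered in the same way. In the lowest 10%, 26 of 40 members were above 0 in each line, and 9 reached 2-fold in H3R26C and 6 in H3WT. In the highest 10%, 33 reached 2-fold in H3R26C and 20 in H3WT. These counts are a description of the chosen list. The share over all genes was not computed for these groups of cells, so nothing is read from the counts. Some rest on few UMIs, such as Oas2 with 9 against 0 and Sp100 with 10 against 1 in the lowest 10% of H3R26C. Isg15 had the largest ratio of the 40 in the lowest 10% of H3R26C, with 52.3 against 6.36 CPM. It was higher at both ends, with 1031 against 94.9 CPM in the highest 10%. Ifit3 was not higher at both, with 8.15 CPM from 31 UMIs against 12.7 CPM from 30 UMIs in the lowest 10%. In the highest it had 461 against 76.7 CPM. Ifitm3 had 478 against 477 CPM in the lowest 10% of H3R26C and 2790 against 869 CPM in the highest. Irgm1, whose library level was nearly flat, had 13.9 against 32.6 CPM in the lowest and 95.9 against 54.7 CPM in the highest.

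The share of cells with a UMI was then set beside the share that the same mean would give if every cell had the same level. In H3R26C 5-Aza, Ifi27l2a was found in 55.5% of cells, where an even level would give 95.8%. Isg15 was found in 57.5% against 83.4%, Ifit1 in 25% against 40% and Ifit3 in 30.2% against 45.4%. The same genes were also found in fewer cells than an even level would give in H3R26C DMSO. There Ifi27l2a was found in 15.02% of cells against 28.05%, and Isg15 in 7.26% against 10.63%. Ifit1 was found in 4.53% against 6.43%, and Ifit3 in 9.05% against 11.12%. An uneven spread of these genes was thus present in this line without 5-Aza as well. In H3R26C 5-Aza these 4 genes had the lowest ratio of found to even share among the 27 members with a mean of at least 10 CPM over the 4 libraries. Rsad2, below that level, was found in 0.276% of H3R26C 5-Aza cells against 0.589%, from 21 cells. At the other end, Dtx3l was found in 6.93% of cells against 7.07%, Ifi204 in 6.26% against 6.43% and Parp9 in 9.14% against 9.47%. For genes this low the found and even shares lie close at most spreads, so these ratios do not show an even level. In the lowest and highest 10% of these cells by the other members, Dtx3l was at 7.88 and 31.0 CPM. Ifi204 was at 5.78 and 22.9 CPM there, and Parp9 at 10.5 and 39.4 CPM. The ratio also says little of abundant genes, whose even share is close to 100%: Ifitm3 was found in 94.1% of cells against 99.96%. The variance of UMIs per cell was 4.38-fold the mean for Ifitm3 and 3.69-fold for Ifit3. This measure grows with the mean level, which was higher for Ifitm3, so it does not rank these genes. In H3WT 5-Aza Ifi27l2a again had the lowest ratio, found in 12.5% of cells against 25.9%. Before thinning, Isg15 was found in 15.4%, 36.5%, 18.8% and 75.5% of cells, and after it in 4.34%, 19.4%, 7.26% and 57.5%, in the order H3WT DMSO, H3WT 5-Aza, H3R26C DMSO and H3R26C 5-Aza. No cell type in these cultures is known to lack the members, so no background share from free RNA was available. Barcodes under 2000 UMIs, which can hold free RNA, had a summed member level of 1300 CPM in H3WT 5-Aza and 2997 CPM in H3R26C 5-Aza, and the part of free RNA in the shares was not tested.

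**Figure D5:**
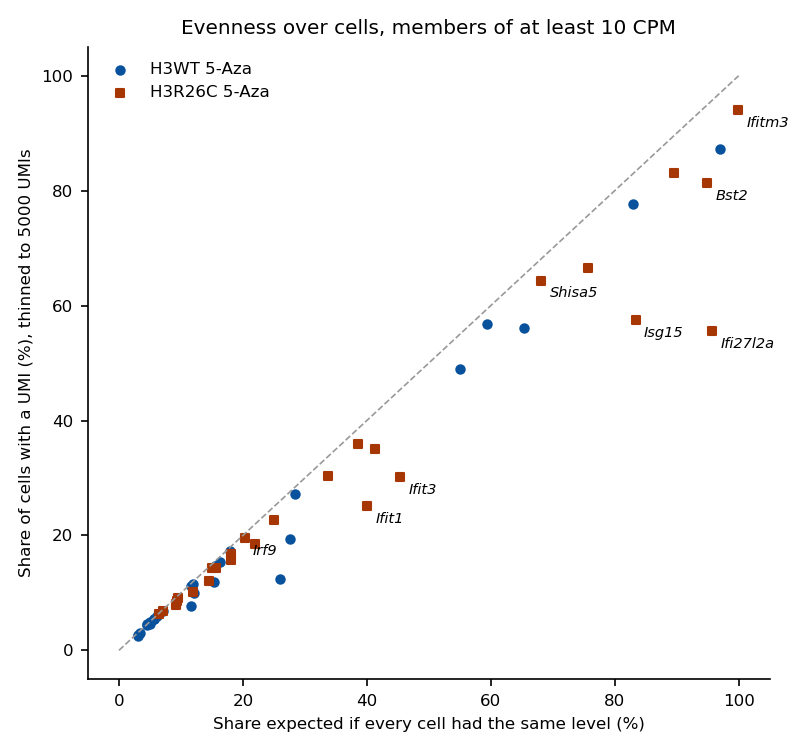
Share of cells with a UMI (y axis, %) against the share expected if every cell had the same level (x axis, %) for the 27 members with a mean of at least 10 CPM over the 4 libraries, in the 2 libraries with 5-Aza, thinned to 5000 UMIs; the dashed line marks equality. Ifi27l2a in H3R26C lies farthest below the line, at 55.5% against 95.8%.

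Other genes of the pathway were taken from a list of 89, of which 88 were measured. Of these, 9 reached 2-fold with 5-Aza in H3WT and 32 in H3R26C, where 4.38% and 7.27% of the 12482 genes did, and none was 2-fold lower, against 0.272% and 3.12%. The counts by role among them stand beside the same shares, and nothing is read from these counts, since the list was chosen with earlier results known. Among the ligands, Ifnb1, Ifna4, Ifnl2 and Ifnl3 had no UMI in any library, where a floor of 3 counts is 0.0271 to 0.0357 CPM. Ifne and Ifng were under 0.1 CPM. None of the 6 receptor chains reached 2-fold on the scale with 1 CPM added, and Ifnlr1 had at most 7 UMIs per library. Ifnar2 was at 62.9, 88.0, 73.2 and 123 CPM and Ifngr2 at 65.4, 73.3, 88.1 and 83.9 CPM, in the order H3WT DMSO, H3WT 5-Aza, H3R26C DMSO and H3R26C 5-Aza.

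Among the kinases, Jak1 was at 166, 162, 165 and 120.1 CPM in the same order of libraries. The inhibitor Socs3 was at 66.9, 134, 52.1 and 80.4 CPM. On the scale with 1 CPM added, none of the 4 inhibitors reached 2-fold. Socs3 in H3WT lay just below it with a log2 ratio of 0.99, and its ratio without the added CPM was 2.00-fold. Of the 10 nucleic acid sensors, 2 reached 2-fold in H3WT and 4 in H3R26C, where Ifih1, Dhx58, Zbp1 and Tmem173 did. The 2 most abundant sensors did not: in H3R26C the RNA-activated kinase Eif2ak2 was at 53.3 and 94.5 CPM and the RNA helicase Ddx58 at 38.7 and 66.4 CPM. Of 8 antigen presentation genes, 2 and 4 reached it. The class I heavy chain H2-K1 was at 61.4, 216, 122 and 503 CPM, while its partner B2m was at 624, 774, 603 and 704 CPM. Of 4 chemokines, Cxcl10 and Cxcl9 reached 2-fold in H3R26C, and Ccl2 was at 172 CPM with DMSO and 97.0 CPM with 5-Aza in that line.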

How the data were processed

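Single-cell RNA was measured in 4 libraries, 1 per condition. The authors made the deposited UMI counts with Cell Ranger (6.1.0 in the matrix headers) on mm10, and the counts are whole numbers without normalization. Seurat 4 is named in the submitters' processing notes. Here the counts of kept cells were summed per library and scaled to CPM, with exact Poisson (95%) intervals. Ratios used a pseudocount of 1 CPM, and their intervals combine the limits of both levels. Shares carry exact binomial intervals. Cells were thinned to 5000 UMIs by random draws without replacement.

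No test between conditions was possible. The members and lists were chosen with earlier results of these data known. In each role group the text names the 2 members with the highest mean CPM, those with the largest and smallest H3R26C ratio and any below 0. For each role of the other pathway genes it names from the 3 with the highest mean, except that 1 gene's values are not given here. Oas1a, Gbp2, Gbp3, Gbp7, Igtp, Bst2, Usp18, Rtp4, Trim30a, Ifih1, Dhx58, Zbp1, Tmem173 and Cxcl9 fall outside that rule and were named after their values were seen. Herc6, Dtx3l and Ifnlr1 fall outside it as well. Marker lists covered progenitor, muscle, adipocyte, blood, endothelial, mitosis and DNA replication genes. The 8 adipocyte markers summed to 81.8 to 326 CPM, and the mitosis and DNA replication lists of 10 genes to 185 to 614 and 224 to 318 CPM.

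Doublets were not removed. At 0.8% per 1000 barcodes they would be 4.99% to 12.0% of a library. A count of 0 stayed at 0 in the ratios with 1 CPM added. The floor of 3 counts was used only where the text names it. Gene positions came from GENCODE M21 on GRCm38. The code was tested on simulated data. Python 3.11.15, numpy 2.4.6, scipy 1.17.1, pandas 2.3.3 and matplotlib 3.10.9 were used. Alternatives changed the pseudocount, scaling, cell filter, depth, gated cells, thinning, seed, order of cells and members used.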

Additional observations from a re-analysis of the deposited data

Results flagged for a closer look

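Barcodes left out by the cell filter also held the members at a higher level with 5-Aza than with DMSO. In H3WT they summed to 1260 CPM with 5-Aza and 966 CPM with DMSO, and in H3R26C to 2803 CPM and 1301 CPM. These barcodes had a median of 705 to 978 UMIs, and each value was below that of the kept cells of its library. They can hold free RNA, damaged cells and small cells, and the part of each was not tested.

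For 3 other genes of the pathway, the ratio of 5-Aza to DMSO lay on opposite sides of 0 in the lines with a counting interval that left out 0 in both. There was 1 library per condition and the difference was not tested. Further genes of the list, such as Adar and Daxx, had point ratios of opposite sign with an interval that included 0 in at least 1 line. The log2 ratio in H3R26C minus that in H3WT was -0.23 for Ifngr2, a chain of the interferon gamma receptor, -0.60 for the transcription factor Irf1, and -0.52 for the GTPase Ifi47. Irf1 was at 34.0, 45.8, 39.8 and 35.0 CPM in H3WT DMSO, H3WT 5-Aza, H3R26C DMSO and H3R26C 5-Aza.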

How the results depend on the processing

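No paired analysis was possible because no condition had more than 1 library. Of 128 alternative values, 87 were counted as close to the reported ones, 39 moved and 2 reversed. The rule for close was wide for the genotype difference of the 5-Aza log2 ratio. Its median of 0.62 became 0.33 over members of at least 10 CPM and 0.46 with a pseudocount of 5 CPM, both counted as close. The medians over members stayed above 0 in all of them, and no other scaling moved the all-gene median by more than 0.0586. The median log2 ratio in H3WT was 0.41 with a pseudocount of 5 CPM and 0.87 in cells of 10000 to 20000 UMIs. In H3R26C it was 1.67 with 0.1 CPM and 1.06 with 5 CPM. After 5-Aza the median between the lines was 1.43 with 0.1 CPM, 0.84 with 5 CPM, 1.23 with median-of-ratios scaling, 1.17 in cells of 10000 to 20000 UMIs, 1.24 without gated cells and 0.98 over members of at least 10 CPM. The count at 2-fold in H3WT was 6 with 5 CPM, and with DMSO between the lines 9 with 0.1 CPM, 2 with 5 CPM and 8 in cells of 10000 to 20000 UMIs. Over members of at least 10 CPM, fewer genes were counted, giving 15 in H3R26C, 13 between the lines after 5-Aza and 10 for the genotype difference.

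The share of cells above the DMSO range in H3WT was 19.8% at 2000 UMIs, 45.5% without thinning, 33.9% with the stricter filter, 20.2% without the 3 most abundant members and 81.3% above the DMSO median. In H3R26C it was 60.3%, 71.8%, 65.0% with another seed, 76.4% without gated cells, 57.4% without those members and 87.6% above the median. The log2 ratio of the lowest 10% of cells in H3WT was 0.79 at 2000 UMIs, 0.10 without thinning, 0.50 with the stricter filter, 0.67 without gated cells, 0.46 without the 3 members and 0.039 ordered by even members. In H3R26C it was 0.60, -0.23, 0.15, 0.72, 1.02 and -0.089, and 0.010 with another seed. The cause of these shifts was not tested.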

Other observations

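Plac8 and Ly6e, induced genes outside the 42, had larger log2 ratios on the same scale than any member. They were chosen after their values were seen. The paper describes Plac8 as an adipogenic marker in groups of cells that came nearly all from H3R26C with 5-Aza. The part of such cells in the level of Plac8 was not tested. Plac8 was at 1.98 CPM in H3WT DMSO, 116 in H3WT 5-Aza, 3.13 in H3R26C DMSO and 376 in H3R26C 5-Aza. Ly6e, a membrane-anchored protein, was at 15.7, 101.3, 29.2 and 884 CPM in the same order. Of the 40 genes in this group of the pathway list, 5 reached 2-fold in H3WT and 21 in H3R26C, where 4.38% and 7.27% of all genes did. Its 3 most abundant genes moved less, with Ly6a at 578, 1034, 667 and 1582 CPM, Ifitm2 at 679, 951, 957 and 1138 CPM, and Lgals9 at 293, 273, 335 and 247 CPM.

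The members' summed level also varied with the quality and depth of the cell. In H3R26C 5-Aza it was 5315 CPM in cells with at most 5% mitochondrial UMIs and 2993 CPM above 5%, and with DMSO 1757 and 1222 CPM. In cells of 10000 to 20000 UMIs it was 1682 CPM with DMSO and 5677 CPM with 5-Aza in H3R26C, and 1081 and 2252 CPM in H3WT.

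Within H3R26C 5-Aza, some members were found together in the same cells. Ifit1 was found in 46.0% of cells with an Ifit3 UMI and in 16% of the others, while Ifi27 was found in 84.8% of cells with an Ifi27l2a UMI and in 80.9% of the others. These are descriptions within 1 library, thinned to 5000 UMIs.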
